A study of Mus musculus with 6 samples.

Results

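The 44 genes described here encode the proteins that copy DNA in S phase, together with the transcription factors, cyclins and chromatin proteins that work beside them. They are the members of a named list of DNA replication and S phase genes, and all 44 of 44 were found among the 19938 genes with a probe set of a single gene symbol. Where a symbol had several probe sets, the one with the highest mean over the 6 arrays was taken. The cells were bone marrow derived mast cells (BMMC) of C57BL/6J mice, either wild type (WT) or knockout for the microRNA miR-155 (KO). Both genotypes were grown in the same way: 5 weeks in IL-3 at 0.5 ng/ml and SCF at 1 ng/ml, an overnight loading with anti-DNP IgE at 0.2 µg/ml, and 1 h of stimulation with the antigen DNP-HSA at 20 ng/ml. Each genotype has 3 arrays from independent cultures, and no unstimulated cells are compared. How the KO allele was made, and which cultures share an animal, is not given in the sources used here.

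Before S phase the origin recognition complex, Cdc6 and Cdt1 load the hexameric Mcm2-7 helicase onto origins, a step called licensing. At the start of S phase Cdc45 and the GINS complex turn that hexamer into an active helicase, primase and DNA polymerases copy both strands, and the sliding clamp PCNA, loaded by replication factor C, holds the polymerases on the template. Many of these genes are transcribed by E2F factors as cells pass from G1 into S phase, and cyclin E with its kinase drives that step. Mast cells in IL-3 and SCF culture divide, so a bulk RNA sample holds cells in and out of S phase. In such samples a smaller share of cycling cells and less RNA of these genes per cycling cell cannot be told apart.

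E2F words were looked for in the promoters of the members. Many of these genes are transcribed by E2F factors, so the share with a word is not independent of the choice of genes. RefSeq windows (GRCm38.p6) from 250 bases before to 50 after the start site were matched for 37 members; Gmnn, Mcm4, Gins1, Gins2, Rfc2, Pole and Ccne2 have none here. An E2F word, any of TTTCCCGC, TTTGGCGC, TTTCGCGC and TTTGCCGC on either strand with overlaps counted, lay in the window of 15 of those 37 genes (40.5%), against 704 of all 27025 genes with a window (2.60%). Among genes on the array with a window it was 541 of 15563 (3.48%). The 15 members are Orc1, Cdc6, Cdt1, Mcm3, Mcm5, Mcm6, Mcm7, Gins3, Rfc3, Pola1, Pold1, Lig1, E2f2, Uhrf1 and Dnmt1. The CCAAT word was in the windows of 23 of the 37 genes (62.2%), against 41.1% of all genes. The words TTTGAA and TTCGAA, the CHR element of genes expressed in G2 and mitosis, were in the windows of 21.6% of the 37 genes and 21.7% of all genes. The 15 members with an E2F word had a median KO minus WT of -0.44 on the log2 scale and the 22 without one -0.36, and in KO replicate 1 their medians lay -1.06 and -0.83 from the WT mean; these are descriptions with no test. A match is a description of letters and not evidence of binding.

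The promoter stretches below show how the words sit before the start site in 7 members with a single listed promoter. Each is written 5′ to 3′ on the strand of the gene, with the E2F words in capitals and 20 bases, or as many as precede the start site, on either side. Mcm5 and Mcm6 carry pairs of overlapping words, and Mcm6 carries a further word closer to the start site. On GRCm38.p6 the stretches are Cdc6 at chr11:98907993-98908040, Gins3 at chr8:95633498-95633545, Mcm5 at chr8:75109336-75109387 and Orc1 at chr4:108579407-108579453 on the plus strand. Mcm6 at chr1:128359725-128359835, Pola1 at chrX:93632266-93632313 and Rfc3 at chr5:151651209-151651238 lie on the minus strand.
Cdc6: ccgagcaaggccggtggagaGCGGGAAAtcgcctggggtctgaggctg
Gins3: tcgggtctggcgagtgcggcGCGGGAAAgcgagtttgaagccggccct
Mcm5: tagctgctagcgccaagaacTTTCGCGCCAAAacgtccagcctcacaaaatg
Mcm6: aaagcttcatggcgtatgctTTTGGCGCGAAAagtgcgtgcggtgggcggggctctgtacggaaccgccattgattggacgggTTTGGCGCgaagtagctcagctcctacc
Orc1: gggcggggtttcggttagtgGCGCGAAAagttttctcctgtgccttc
Pola1: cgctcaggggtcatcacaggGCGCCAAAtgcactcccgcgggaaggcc
Rfc3: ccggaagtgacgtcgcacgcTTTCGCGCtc

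The arrays hold deposited log2 intensities, on which 1 unit is a 2-fold step, and array medians lay between 3.67 and 3.74. KO replicate 1 stood apart over all genes: the first principal component took 48.3% of the variance and placed it at 32.0, against 5.36 and 7.31 for KO replicates 2 and 3 and -19.5 to -10.6 for the WT arrays. Every member is therefore given with and without that array. The Mir155 probe set read 2.99 ± 0.15 (SD, n = 3) in WT and 2.86 ± 0.08 in KO, both below the median gene level of 3.92, so it does not check the genotype. The mean of 13 mast cell markers lay between 10.17 and 10.51 on every array, with Kit, the SCF receptor, at 11.72, 11.85 and 12.09 in WT replicates 1 to 3 and 11.71, 11.92 and 11.82 in KO replicates 1 to 3. None of the 13 passed the test between genotypes, but they were not all high or even: the protease Mcpt4 averaged 4.93, and Tpsab1, a tryptase, ran from 5.50 to 7.29. Hdc, the enzyme that makes histamine, read 8.79, 9.65 and 9.70 in WT and 10.72, 10.15 and 9.80 in KO, highest in KO replicate 1, a difference of 0.84 (SE 0.28, adjusted p = 0.233). All KO arrays also lay above all WT arrays for Mcpt4 (0.44, adjusted p = 0.174 by limma) and Srgn (0.21, adjusted p = 0.311). Such separation held for 3 of the 13 markers and for 1631 of all 19938 genes.

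The mean of the 44 genes was 6.85, 6.59 and 7.01 in WT replicates 1 to 3 and 5.86, 6.61 and 6.82 in KO replicates 1 to 3. KO replicate 1 lay below every other array, while KO replicates 2 and 3 lay inside the WT range. The WT arrays averaged 6.82 ± 0.21 and the KO arrays 6.43 ± 0.51 (SD, n = 3 each), a difference of -0.39, against a mean of -0.00 over all 19938 genes. Measured from the WT mean, the KO arrays stood at -0.96, -0.21 and 0.00. KO replicate 1 thus carried 82.5% of the summed KO deviation, KO replicate 2 carried 17.6% and KO replicate 3 carried -0.172%. On the linear scale these means correspond to 51.3%, 86.7% and 100% of WT. Without KO replicate 1 the difference was -0.10, smaller than the SD of the WT arrays. Leaving out any other array gave -0.58 to -0.29.

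**Figure D1:**
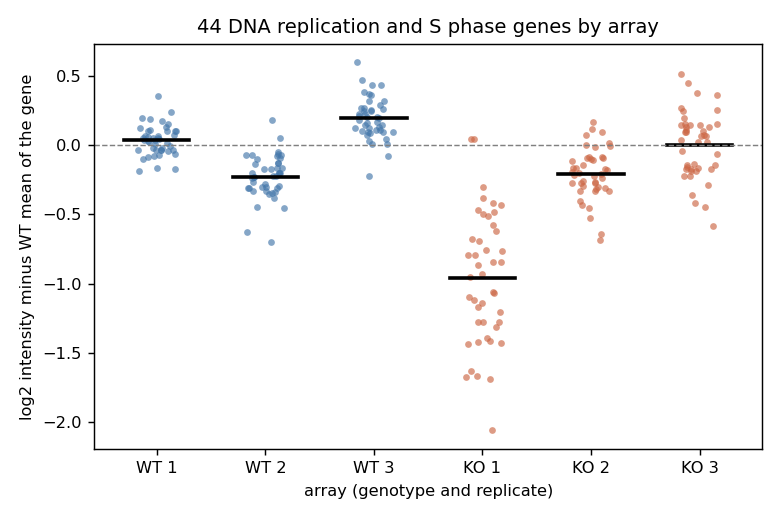
Each point is 1 of the 44 genes on 1 array, as log2 intensity minus the mean of that gene over the 3 WT arrays; the black bar is the mean of the 44 genes. The bar stands at -0.96 in KO replicate 1, and at -0.21 and 0.00 in KO replicates 2 and 3, inside the WT bars at -0.23 to 0.19.

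KO minus WT was negative for 41 of the 44 genes, against 52.0% of all genes, and ran from -0.85 for Lig1 to 0.12 for E2f2. Of the 44, 1 fell (Rfc2), none rose, and 43 did not pass an adjusted p of 0.05 by limma with Benjamini-Hochberg adjustment. Over all genes 0.823% passed in either direction and 0.316% fell. At an unadjusted p under 0.05, 9 members were lower and none higher, where 6.45% of all genes were lower. In 8 members (Mcm2, Gins3, Rfc2, Rpa1, Lig1, E2f1, Dnmt1 and Chaf1b) all 3 KO arrays lay below all 3 WT arrays, against 9.05% of all genes.

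KO replicate 1 was the lowest of the 6 arrays for 42 of the 44 genes, against 22.1% of all genes; Gins2 was lowest in KO replicate 2 and E2f2 in WT replicate 1. In that array 21 members were at least 2-fold below their WT mean, against 1.12% of all genes, whereas no member was 2-fold lower over the 3 KO arrays. KO replicate 3 was above the WT mean for 25 members and KO replicate 2 for 5. The order KO replicate 1, 2, 3 from low to high held for 36 members, against 19.9% of all genes. The KO SD exceeded the WT SD for 42 members, against 48.6% of all genes.

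Origin licensing genes averaged -0.43 over 11 members, with KO replicates 1 to 3 at -1.09, -0.19 and -0.02 from the WT mean, and none passed the test. Mcm2, a subunit of the helicase hexamer, read 8.14, 8.17 and 8.35 in WT replicates 1 to 3 and 6.94, 7.77 and 7.93 in KO replicates 1 to 3. All KO arrays of Mcm2 lay below all WT arrays, a difference of -0.68 (SE 0.23, adjusted p = 0.235), and -0.37 without KO replicate 1. Its partner Mcm6 read 8.29, 8.16 and 8.52 in WT and 7.39, 8.07 and 8.18 in KO, -0.44 (SE 0.20, adjusted p = 0.400); here KO replicate 3 reached the level of WT replicate 2. Mcm3 had the widest gap in this group, at 8.86, 8.64 and 9.10 in WT and 7.18, 8.46 and 8.69 in KO: KO replicate 1 was 3.23-fold below the WT mean. Mcm5 and Mcm7 stood 3.19-fold and 3.10-fold below it in that array, and their differences of -0.61 and -0.60 became -0.08 and -0.08 without it. Mcm4 went from -0.39 to -0.01.

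The loaders of the hexamer showed the same split between arrays. Cdc6, the ATPase that brings the hexamer to the origin recognition complex, read 6.11, 5.88 and 6.64 in WT and 5.14, 6.22 and 6.32 in KO, so that its difference of -0.32 turned to 0.06 without KO replicate 1. Cdt1, which carries the hexamer to origins, differed by -0.28 with that array and 0.00 without it. Gmnn, the inhibitor of Cdt1, read 4.08, 3.77 and 4.05 in WT and 3.21, 3.76 and 3.79 in KO, -0.38 (SE 0.16, adjusted p = 0.383). Among origin recognition subunits, Orc1 differed by -0.16 and Orc6 by -0.14, and the values without KO replicate 1 were -0.03 and 0.08.

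**Figure D2:**
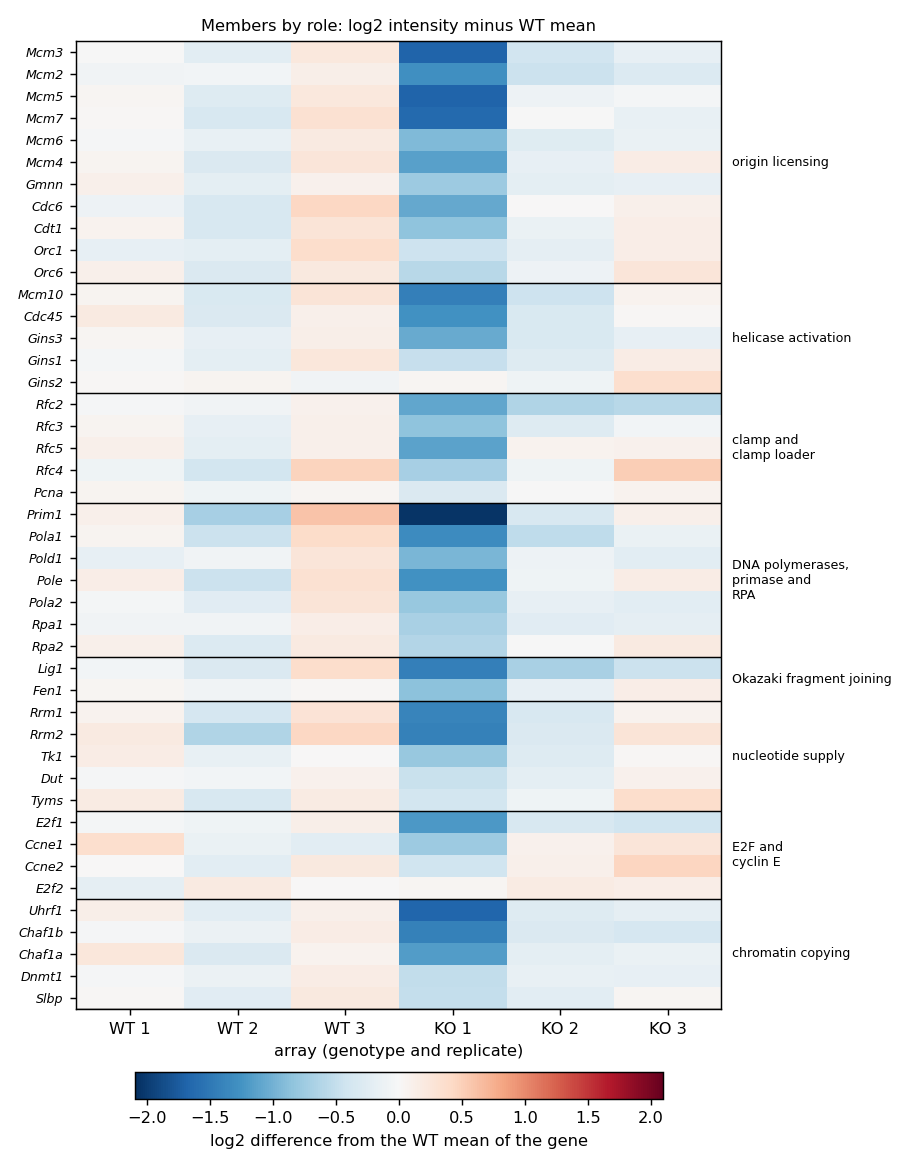
Rows are the 44 genes grouped by role and columns the 6 arrays; colour is log2 intensity minus the WT mean of the gene. The column of KO replicate 1 is the lowest of the 6 for 42 genes, with Prim1 at -2.06, while E2f2 and Gins2 stand at 0.05 and 0.04.

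Helicase activation genes averaged -0.35 over 5 members, with KO arrays at -0.84, -0.29 and 0.09, and none passed. Gins3 read 5.61, 5.40 and 5.70 in WT and 4.51, 5.25 and 5.40 in KO, with KO replicate 3 just under WT replicate 2; its difference was -0.52 (SE 0.21, adjusted p = 0.341). Cdc45, which joins GINS and the hexamer in the active helicase, read 6.27, 5.78 and 6.19 in WT and 4.80, 5.77 and 6.10 in KO, -0.52 (SE 0.29, adjusted p = 0.531). Mcm10, which helps the helicase start, read 5.49, 5.12 and 5.70 in WT and 3.997, 5.000 and 5.50 in KO, -0.60 (SE 0.33, adjusted p = 0.522). Cdc45 and Mcm10 stood 2.43-fold and 2.71-fold below the WT mean in KO replicate 1 and overlapped WT replicate 2 in KO replicate 3. Of the other GINS subunits, Gins1 differed by -0.20 (SE 0.17) and Gins2 by 0.10 (SE 0.12), and the contrast between them was not tested. Gins1 lies near the median gene level of 3.92, and Gins2 was not lowest in KO replicate 1.

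Rfc2, a subunit of the clamp loader replication factor C, was the member that fell. It read 9.63, 9.58 and 9.74 in WT replicates 1 to 3 and 8.55, 9.01 and 9.06 in KO replicates 1 to 3, so that the lowest WT array lay above the highest KO array by more than the spread within WT. The means were 9.65 ± 0.08 and 8.87 ± 0.28 (SD, n = 3), a difference of -0.77 (SE 0.14, adjusted p = 0.0474 by limma) or 1.71-fold. KO replicates 2 and 3 stood at -0.64 and -0.58 from the WT mean beside -1.10 for KO replicate 1, and without KO replicate 1 the difference was -0.61 (adjusted p = 0.0417), in a comparison where 0.517% of all genes passed. The call was not stable: it passed in 8 of 16 alternative settings, with adjusted p from 0.0194 to 0.362, and leaving out any 1 of the other arrays gave 0.0637 to 0.155.

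The other clamp and loader genes did not share that separation. Rfc3 read 6.34, 6.10 and 6.39 in WT and 5.44, 6.001 and 6.21 in KO, -0.39 (SE 0.18, adjusted p = 0.435), with KO replicate 3 inside the WT range. Rfc5 read 7.72, 7.41 and 7.71 in WT and 6.50, 7.69 and 7.71 in KO, -0.32 (SE 0.29, adjusted p = 0.754): KO replicates 2 and 3 lay inside the WT range and the value turned to 0.08 without KO replicate 1. Rfc4 differed by -0.09, and by 0.21 without it. Pcna, the sliding clamp, read 10.03, 9.88 and 10.02 in WT and 9.67, 9.98 and 10.04 in KO, -0.08 (SE 0.11, adjusted p = 0.864). Pcna had one of the smallest gaps in KO replicate 1, 1.23-fold below the WT mean, and a second Pcna probe set differed by -0.09.

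DNA polymerases, primase and the single-strand binding protein RPA averaged -0.45 over 7 members, with KO arrays at -1.10, -0.21 and -0.05, and none passed. Pola1, the catalytic subunit of polymerase alpha that extends the primers, read 5.99, 5.49 and 6.31 in WT and 4.62, 5.41 and 5.79 in KO, -0.66 (SE 0.30, adjusted p = 0.407). Its accessory subunit Pola2 read 6.67, 6.47 and 6.97 in WT and 5.91, 6.54 and 6.48 in KO, -0.39 (SE 0.18, adjusted p = 0.430). In both genes the highest KO array passed the lowest WT array. Prim1, the primase that lays down RNA primers, had the largest drop of any member in a single array: it read 6.38, 5.57 and 6.87 in WT and 4.21, 5.94 and 6.38 in KO, with KO replicate 1 4.17-fold below the WT mean. Its difference of -0.76 was -0.11 without that array, and its WT arrays alone spanned 1.30.

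Rpa1, the large RPA subunit, read 7.59, 7.59 and 7.80 in WT and 6.98, 7.43 and 7.47 in KO, -0.37 (SE 0.14, adjusted p = 0.302), with no overlap between genotypes. Rpa2 differed by only -0.15, and by 0.09 without KO replicate 1. Of the polymerases that copy most of the genome, Pold1 differed by -0.43 and Pole by -0.41, and without KO replicate 1 by -0.17 and 0.03.

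Lig1, the ligase that seals Okazaki fragments, had the largest difference of the 44 genes. It read 6.96, 6.72 and 7.39 in WT and 5.59, 6.34 and 6.58 in KO, -0.85 (SE 0.25, adjusted p = 0.179) or 1.81-fold, and -0.56 without KO replicate 1. All KO arrays lay below all WT arrays, but Lig1 passed in none of 16 alternatives (adjusted p 0.0904 to 0.547). Fen1, the nuclease that trims the fragments before ligation, read 7.26, 7.15 and 7.25 in WT and 6.35, 7.04 and 7.35 in KO, -0.30 (SE 0.22, adjusted p = 0.658). KO replicate 3 was the highest of the 6 arrays for Fen1, unlike Lig1, and without KO replicate 1 the difference was -0.02.

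Nucleotide supply genes averaged -0.32 over 5 members, with KO arrays at -0.89, -0.24 and 0.17, and none passed. Rrm1 and Rrm2 form ribonucleotide reductase, which makes deoxyribonucleotides. Rrm1 read 8.82, 8.40 and 9.05 in WT and 7.36, 8.42 and 8.83 in KO, -0.55 (SE 0.33, adjusted p = 0.576). Rrm2 read 8.52, 7.69 and 8.76 in WT and 6.90, 8.03 and 8.59 in KO, -0.48 (SE 0.41, adjusted p = 0.728). Both were more than 2-fold below the WT mean in KO replicate 1 and within 0.13 of WT without it, and WT replicate 2 was low for both.

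Tyms, which makes thymidylate, read 6.86, 6.34 and 6.85 in WT and 6.30, 6.60 and 7.06 in KO, -0.03 (SE 0.20, adjusted p = 0.978), with KO replicate 3 the highest array. Tk1, the salvage thymidine kinase, read 6.47, 6.16 and 6.33 in WT and 5.52, 6.04 and 6.34 in KO, -0.35 (SE 0.19, adjusted p = 0.515); a dimmer second probe set differed by -0.19. Dut, which removes dUTP, read 6.20, 6.17 and 6.32 in WT and 5.76, 6.02 and 6.32 in KO, -0.20 (SE 0.14, adjusted p = 0.651). These thymidine-pathway genes had smaller gaps in KO replicate 1, at -0.38, -0.80 and -0.47, than the reductase subunits at -1.39 and -1.42; the contrast between the groups was not tested.

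The E2F and cyclin E group averaged -0.16 over 4 members, with KO arrays at -0.58, 0.01 and 0.11, and it held 2 of the 3 positive differences. E2f1, the transcriptional activator of S phase genes, read 6.64, 6.59 and 6.80 in WT and 5.47, 6.34 and 6.26 in KO, -0.65 (SE 0.21, adjusted p = 0.209), with no overlap and -0.38 without KO replicate 1. E2f2 read 3.76, 4.13 and 3.95 in WT and 3.99, 4.12 and 4.09 in KO, 0.12 (SE 0.11, adjusted p = 0.747), at a level close to the median gene of 3.92. The signs of these activators were thus opposite, and neither passed. Ccne1, a cyclin E that drives the G1 to S step, read 6.40, 5.91 and 5.82 in WT and 5.28, 6.14 and 6.29 in KO, -0.14 (SE 0.26, adjusted p = 0.902). Ccne2 read 5.38, 5.15 and 5.58 in WT and 4.95, 5.48 and 5.82 in KO, 0.05 (SE 0.21, adjusted p = 0.967). Without KO replicate 1 the differences of the cyclin E genes were 0.17 and 0.28.

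Chromatin copying genes averaged -0.48 over 5 members, with KO arrays at -1.05, -0.23 and -0.16, and all 5 stayed negative without KO replicate 1. Uhrf1, which directs maintenance DNA methylation to new strands, read 7.78, 7.43 and 7.75 in WT and 5.99, 7.39 and 7.47 in KO, -0.70 (SE 0.34, adjusted p = 0.459), and was 3.17-fold below the WT mean in KO replicate 1. Dnmt1, the maintenance methyltransferase, read 8.30, 8.18 and 8.46 in WT and 7.80, 8.15 and 8.15 in KO, -0.28 (SE 0.12, adjusted p = 0.386), with KO just under WT. In KO replicate 1 these partners stood at different distances from WT, -1.67 and -0.51. Chaf1b, a subunit of the CAF-1 histone chaperone, read 7.58, 7.49 and 7.77 in WT and 6.19, 7.31 and 7.26 in KO, -0.69 (SE 0.26, adjusted p = 0.307), with no overlap. Its partner Chaf1a differed by -0.50. Slbp, which binds the stem loop of histone mRNAs, read 8.25, 7.98 and 8.43 in WT and 7.73, 7.997 and 8.26 in KO, -0.23 (SE 0.16, adjusted p = 0.640); a second probe set differed by -0.27.

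Leaving out arrays in turn showed how much KO replicate 1 sets the pattern. Without it 31 of 44 members were negative, against 52.1% of all genes, 5 were lower at an unadjusted p under 0.05 (4.90% of all genes) and Rfc2 passed. Pola1 and Chaf1b then still stood at -0.33, Mcm3 at -0.29 and Gins3 at -0.25, while 10 of the 44 changed sign. Without KO replicate 3, which stands nearest to WT, 25 members were lower at an unadjusted p under 0.05 (6.79% of all genes) and none passed. For 22 members KO replicates 2 and 3 were both at or above the lowest WT array; in each of these except E2f2, KO replicate 1 lay below all WT arrays.

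**Figure D3:**
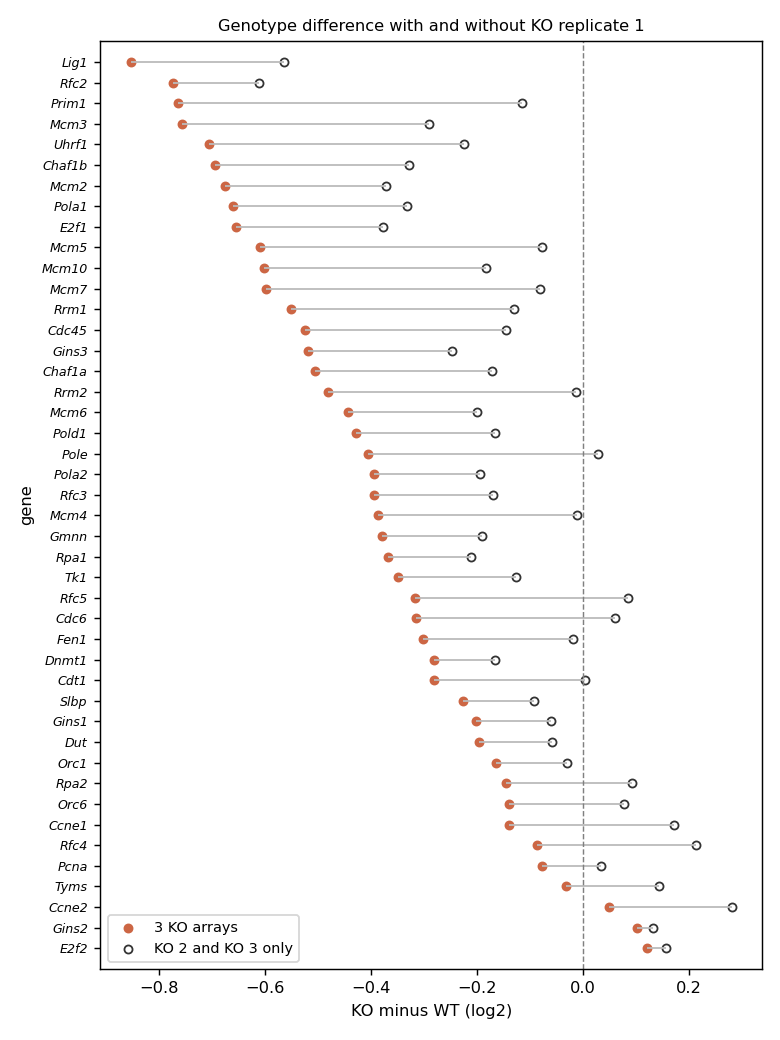
For each of the 44 genes, the filled point is KO minus WT (log2) over 3 KO arrays and the open point the same without KO replicate 1. Negative genes number 41 with that array and 31 without, and Rfc2 (-0.61) and Lig1 (-0.56) keep the lowest open points.

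Spread along the same genes was also present inside WT. WT replicate 2 was the lowest WT array for 38 of the 44 genes, against 34.9% of all genes, and its mean was 0.42 below that of WT replicate 3. KO replicate 3 exceeded KO replicate 1 in 44 of 44 genes, and WT replicate 3 exceeded WT replicate 2 in 41, with E2f2, Gins2 and Ccne1 as exceptions. The median gap was 0.42 in WT and 0.94 in KO, against 0.01 in each over all genes. Genes with a wide gap in one genotype tended to have a wide gap in the other: Prim1 had 1.30 in WT and 2.17 in KO, and Rrm2 had 1.07 and 1.69. Pcna had 0.15 and 0.37, and Dnmt1 0.28 and 0.35. Some genes departed from this, with a wide gap in KO only: Mcm5 had 0.49 and 1.63, Uhrf1 0.33 and 1.48, and Ccne1 -0.09 and 1.01. Across the 44 genes Pearson's r was 0.693 and Spearman's rho 0.600, against 0.286 and 0.185 over all genes. The array pairs were chosen after their values were seen, and genes on shared arrays are not independent replicates, so these are descriptions.

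**Figure D4:**
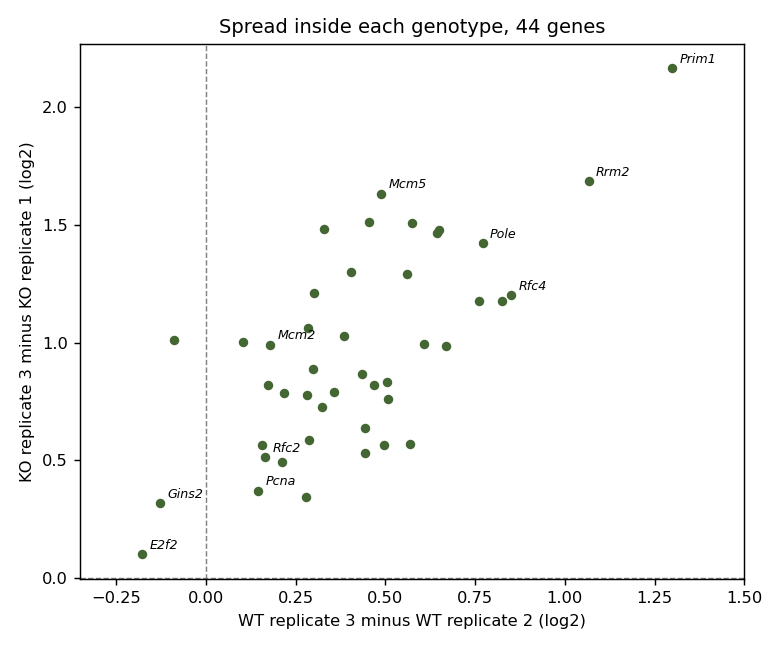
Each point is 1 of the 44 genes; the x axis is WT replicate 3 minus WT replicate 2 and the y axis KO replicate 3 minus KO replicate 1, both log2. Prim1 (1.30, 2.17) lies at the upper end and E2f2 (-0.18, 0.10) at the lower, and 41 genes are positive on both axes.

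Genes of mitosis and G2, which work after S phase, followed the same arrays. The mean of 64 such genes stood at 0.13, -0.46 and 0.33 in WT replicates 1 to 3 and -1.20, -0.38 and 0.10 in KO replicates 1 to 3, measured from the WT mean. From low to high the arrays ran in the same order as for the 44 members. The mean difference was -0.49 (median -0.50), and -0.14 without KO replicate 1; 64 of 64 were negative, KO replicate 1 was the lowest array for 60, and none passed. Ccnb2, the mitotic cyclin B2, read 6.59, 6.03 and 6.69 in WT and 4.62, 5.52 and 6.19 in KO. Its difference was -0.996 (adjusted p = 0.258 by limma), with KO replicate 3 above WT replicate 2. Cdc25b, a phosphatase that opens entry into mitosis, differed by -0.61 (adjusted p = 0.177) and was lowest in KO replicate 1. With the mitosis mean of each array added to the fit, a setting chosen after seeing the data, the members' mean difference was -0.05 and 26 of 44 were negative. Rfc2 stood at -0.60 (SE 0.11, adjusted p = 0.0590 by limma) and Lig1 at -0.47 (adjusted p = 0.147) in that fit. Rfc4 at 0.37 (adjusted p = 0.325) and Ccne2 at 0.36 (adjusted p = 0.201) went the other way. At an unadjusted p under 0.05, 4 members were lower and 3 higher there, against 11.1% of all genes in either direction. What part the share of cycling cells has in the members' differences was not tested.

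Other genes of DNA replication followed with smaller gaps. Of 35 further replication genes none passed, 31 were negative, and the median difference was -0.17, against -0.01 over all genes and -0.39 for the 44 members. The 34 further S phase and nucleotide genes had a median difference of -0.26; 1 of them fell and the other 33 stayed short of the threshold. The gene that fell was Samhd1, a dNTP hydrolase, which read 6.28, 6.40 and 6.46 in WT and 5.77, 5.67 and 5.83 in KO, a difference of -0.62 (SE 0.09, adjusted p = 0.0247). KO replicate 2, not KO replicate 1, was lowest for Samhd1, and its adjusted p was 0.0501 to 0.0932 with any 1 array left out. Of 17 further genes of the E2F and RB families none passed. Rbl1, a pocket protein that restrains E2F, read 7.50, 7.21 and 7.91 in WT and 6.01, 7.09 and 7.28 in KO. Its difference was -0.75 (adjusted p = 0.360 by limma), with KO replicate 1 the lowest array and KO replicate 3 above WT replicate 2. Rbl2 differed by -0.33 (adjusted p = 0.139), with all KO arrays below all WT arrays.

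Markers of other cells that a bone marrow culture can hold were read as list means and singly. As list means measured from the WT mean, KO replicates 1 to 3 stood at 0.05, -0.07 and -0.09 for 10 progenitor markers, -0.25, -0.09 and -0.02 for 7 macrophage markers, and -0.26, -0.18 and 0.01 for 8 basophil and eosinophil markers, with WT replicate 2 at -0.27 in the last. For 5 erythroid markers KO replicates 1 to 3 stood at 0.09, 0.02 and -0.05, and for 7 lymphocyte markers at -0.01, 0.03 and 0.11. Csf1r of macrophages averaged 3.44, Elane of neutrophil precursors 3.26 and Cd3e of T cells 3.59, all below the median gene level. Other genes of these lists were high: Cd34 averaged 11.16, Tfrc 10.33, Gata1 8.96, Spn 8.65, Cd200r3 8.46 and Meis1 8.14. In bulk RNA, expression of such genes by the mast cells and by other cells cannot be told apart. In the progenitor and erythroid lists, Flt3 (3.45), Mpo (3.15), Klf1 (3.50) and Alas2 (3.08) lay below the median gene level. Cd34, from the progenitor list, was highest in KO replicate 1. All its KO arrays lay above all WT arrays (0.38, adjusted p = 0.162 by limma), and this does not count progenitors. Mcpt8 and Prss34 varied widely, with low values in WT replicate 2 and KO replicate 1, arrays that were also low for the members. Not every gene of the basophil and eosinophil list followed. Epx was highest in KO replicate 1 (3.46) and Cebpa in WT replicate 2 (3.87), both at levels below the median gene. Cd200r3 read 8.36, 8.32 and 8.57 in WT and 8.51, 8.51 and 8.50 in KO. Mcpt8, a basophil protease, read 7.56, 5.23 and 7.26 in WT and 5.64, 6.18 and 7.58 in KO. Prss34, another basophil protease, read 5.10, 4.11 and 5.61 in WT and 3.99, 4.12 and 4.65 in KO, a difference of -0.69 (SE 0.34, adjusted p = 0.464), lowest in KO replicate 1 and highest in WT replicate 3. Cd68, a lysosomal protein abundant in macrophages, read 8.37, 8.52 and 8.49 in WT and 7.60, 8.28 and 8.43 in KO, lowest in KO replicate 1. None of these markers passed the test. Their part in the members' differences was not tested.

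**Figure D5:**
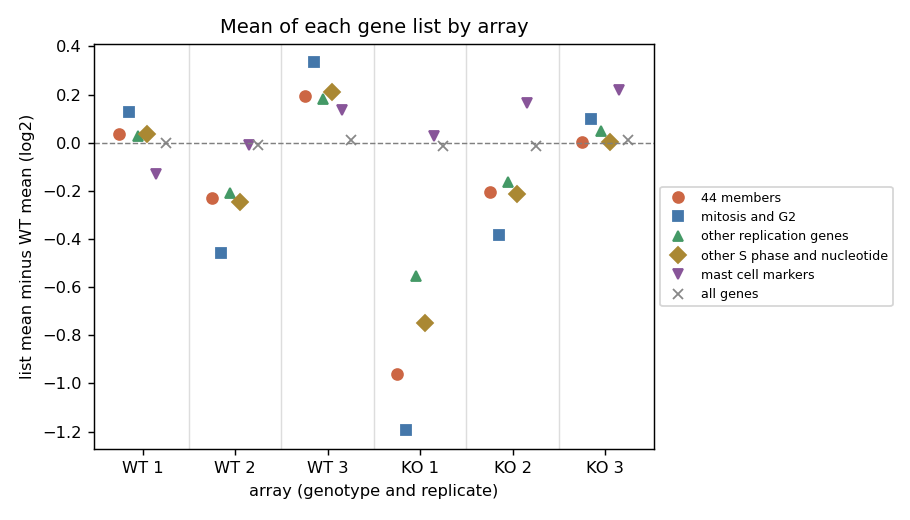
The mean of each gene list on each array is plotted as log2 difference from its WT mean. The members and the mitosis and G2 genes dip to -0.96 and -1.20 in KO replicate 1, while the mast cell markers stand at 0.03 there.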

How the data were processed

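Total RNA was measured on Affymetrix Mouse Gene 1.0 ST arrays, with an array for each culture. The authors deposited log2 intensities normalised with RMA, per the submitters' processing notes, and these were used unchanged. Of 35557 probe sets, 21789 carry a single gene symbol in the platform annotation, 1621 several and 12147 none listed; only the first kind was named. The probe set with the highest mean over 6 arrays stood for each of 19938 genes (999 had more than 1). limma 3.58.1 in R 4.3.3 fitted genotype alone (4 residual degrees of freedom) with empirical Bayes and Benjamini-Hochberg adjustment over all 19938 genes, and an adjusted p under 0.05 was a call. No p is given for the module mean. Full statistics were given for the 3 members with the lowest unadjusted p in each role group (both where a group has 2) and for Mcm2, Mcm10, E2f1, E2f2, Pcna, Rrm2, Tyms, Tk1, Ccne1, Ccne2, Uhrf1 and Slbp; from each other list at most the 3 genes with the lowest p were named, any that passed, and the D-type cyclins, Cdkn1b and Myc. Cell type markers named singly were chosen after their values were seen. The members and lists were chosen with earlier results of these data known. Second probe sets of Pcna, Tk1 and Slbp were read separately, and the locus each measures is not given in the sources used here. Deviations of same-numbered replicates from their group means correlated at -0.01, -0.06 and 0.24. Deviations within groups of 3 arrays constrain one another, so these values cannot show whether cultures were paired. The sources give no pairing, and arrays were not paired. With 3 arrays per genotype, their number limits the precision. Alternatives were centring, quantile scaling, probe set choice, filtering, weighting, variance model and leaving out each array. Promoters are RefSeq windows of GRCm38.p6, and figures used matplotlib 3.10.9.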

Additional observations from a re-analysis of the deposited data

How the results depend on the processing

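The difference of the members' mean, -0.39, kept its sign under every setting tried and ranged from -0.58 to -0.10 with any 1 array left out (-0.10 without KO replicate 1). Array weights gave -0.26 and the mitosis mean as covariate, chosen after seeing the data, gave -0.05. The count of genes called, 164, was 4 with every probe set tested, 0 with the ordinary test (9.96% of genes and 1 member at an unadjusted p under 0.05), 96 with that covariate, and 15 to 167 with an array left out (15 without WT replicate 1, 27 without WT replicate 3, 43 without WT replicate 2, 74 without KO replicate 3, 103 without KO replicate 1). The count of members called, 1, was 0 with every probe set, 0 with the ordinary test, 0 with that covariate, and 0 to 1 with an array left out. With a replicate block the count was 199 genes and 1 member. Whether the numbers pair the samples is not known. WT replicate 3 and KO replicate 3 correlated best (0.237), and WT replicate 2 and KO replicate 1, which carry different numbers, nearly as well (0.235). Without KO replicate 1, 10 of the 44 members changed sign (Orc6, Cdc6, Cdt1, Pcna, Rfc4, Rfc5, Pole, Rpa2, Tyms and Ccne1), and with the covariate 15 did (these, with Orc1, Mcm4, Gins1, Prim1 and Rrm2). Of the members given with full statistics, with an array left out, Tyms ran from -0.24 to 0.14, Ccne1 from -0.33 to 0.17, Ccne2 from -0.15 to 0.28, Pcna from -0.15 to 0.034 and Rfc5 from -0.52 to 0.084. Tyms was 0.042 with array weights. With the covariate Pcna was 0.054, Rfc5 0.091, Rrm2 0.17, Tyms 0.26 and Ccne1 0.16. The cause was not tested. Orc1, Gmnn, Gins1 and E2f2 lie near the median gene level of 3.92, and no detection call was used.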

Other observations

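Regulators of G1, the phase before S phase, gave another order of arrays than the 44 genes. The mean of 14 G1 cyclins, kinases and inhibitors stood at 0.14, -0.08 and 0.22 from the WT mean in KO replicates 1 to 3. The difference was 0.09 (median 0.01), but this list mixes genes of opposite roles and its mean joins rises with falls. None passed the test, while 7 of the 14 had an unadjusted p under 0.05 by limma, against 12.7% of all genes. Cdkn1b, an inhibitor of cyclin E kinase, read 8.46, 8.21 and 8.34 in WT replicates 1 to 3 and 7.76, 7.77 and 7.96 in KO replicates 1 to 3, a difference of -0.51 (SE 0.10, adjusted p = 0.0625 by limma). All KO arrays lay below all WT arrays, and leaving out any 1 array gave adjusted p from 0.0948 to 0.197. Cdkn2b, an inhibitor of the cyclin D kinases, read 5.21, 4.97 and 4.86 in WT and 6.15, 5.40 and 5.97 in KO, 0.82 (SE 0.18, adjusted p = 0.0880). Myc read 7.08, 6.81 and 7.04 in WT and 7.84, 7.29 and 7.97 in KO, 0.72 (SE 0.17, adjusted p = 0.0984), and Ccnd2, a D-type cyclin, differed by 0.34 (SE 0.08, adjusted p = 0.0962). In Cdkn2b, Myc and Ccnd2 all KO arrays lay above all WT arrays. Of the 14 genes, 4 were separated upward in this way and 3 downward, against 1631 and 1805 of all 19938 genes. The D-type cyclins Ccnd1 and Ccnd3 differed by 0.24 and -0.19.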
